A study of Mus musculus with 14 samples.

Results

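The genes described here are 39 genes by which T lymphocytes and natural killer (NK) cells are recognised, measured in RNA of whole mouse lung on 14 Affymetrix arrays. They were listed by symbol for their known roles, by a rule that uses no measured value, though with earlier results of these data known. Each was read from probe sets that the platform annotation maps to that symbol alone, and where a gene had several, the probe set with the highest mean over the 14 arrays stood for it. Of the 39 genes, 35 had such a probe set, among 18194 genes of the array. Of these, 24 exceeded the array median on at least 3 of the 14 arrays and were tested among 11360 genes, 11 did not, and the other 4 (Lck, Il2rg, Tcf7 and Klrb1c) were not analysed here. A gene that passed this filter only through the arrays where it was high, such as Cd27, Eomes and Klrg1 with 3 arrays each, was bound to vary between arrays.

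The study asked how mechanical ventilation at a high tidal volume, which injures the lung, acts together with PBEF, the pre-B-cell colony enhancing factor encoded by Nampt. The titles name 4 groups. VILI PBEF+/- lungs (3 arrays) came from animals aged 8 to 12 weeks that were ventilated for 4 hours. VALI lungs (4 arrays) came from animals aged 18 to 22 weeks ventilated for 4 hours. PBEF+/- lungs (3 arrays) and Control lungs (4 arrays) came from animals aged 18 to 22 weeks, the PBEF+/- animals without ventilation and the Control animals given PBS. The tidal volume is 40 ml/kg in the labels of the ventilated samples and 30 ml/kg in the design text. The design text speaks of recombinant human PBEF placed in the airway, whereas the titles write PBEF+/- in the manner of an allele, and the labels do not settle which of these the group carries. Strain and sex are not given, and every sample's description calls it a control animal. Age cannot be told apart from the VILI PBEF+/- group. The labels do not say whether the arrays of a group are separate animals, and the p-values therefore cover only the spread from array to array, which may be technical.

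T cells recognise antigen through a receptor whose signal passes through the CD3 chains and the zeta chain, and the adapters Lat and Skap1 carry it onward, while Cd28 and Icos add costimulation. NK cells and cytotoxic T cells kill by releasing perforin, which opens the target's membrane, and granzymes, proteases that then start cell death. Il7r is the receptor chain for interleukin 7, on which resting T cells depend, and it is also found on innate lymphoid cells. The lung holds both resident lymphocytes and lymphocytes within its blood vessels, and whole-lung RNA contains both. In whole-lung RNA, fewer cells of a type and less RNA per cell cannot be told apart.

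The stretches upstream of the annotated starts of 4 genes are shown as examples. Of 7 genes that met the adjusted threshold once 2 doubtful arrays, described below, were left out, they are, for each comparison, the 2 with the smallest p among those with a sequence in the table used: Il7r and Prf1 in VALI lungs and Cd247 and Bcl11b in VILI PBEF+/- lungs. Each is 250 bases of RefSeq sequence on build GRCm38.p6, written 5′ to 3′ on the gene's strand and ending at the base before the start. They lie at chr15:9529877-9530126 on the minus strand for Il7r, chr10:61297586-61297835 on the plus strand for Prf1, chr1:165788431-165788680 on the plus strand for Cd247 and chr12:108003415-108003664 on the minus strand for Bcl11b. Capitals mark matches, on either strand, to 5 short motifs of lymphocyte transcription factor families: the RUNX core TGTGGT, the T-box site GGTGTG, the AP-1 site TGANTCA, the TCF/LEF core CTTTGA and the ETS core CAGGAAG.
Il7r: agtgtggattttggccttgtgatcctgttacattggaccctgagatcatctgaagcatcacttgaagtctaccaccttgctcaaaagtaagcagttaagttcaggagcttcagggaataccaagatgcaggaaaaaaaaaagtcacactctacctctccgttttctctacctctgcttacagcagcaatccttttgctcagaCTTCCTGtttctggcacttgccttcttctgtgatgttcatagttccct
Prf1: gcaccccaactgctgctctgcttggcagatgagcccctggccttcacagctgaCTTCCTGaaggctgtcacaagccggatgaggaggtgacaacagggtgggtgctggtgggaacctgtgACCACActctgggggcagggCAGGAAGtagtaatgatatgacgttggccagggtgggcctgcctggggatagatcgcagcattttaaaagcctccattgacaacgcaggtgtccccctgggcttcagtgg
Cd247: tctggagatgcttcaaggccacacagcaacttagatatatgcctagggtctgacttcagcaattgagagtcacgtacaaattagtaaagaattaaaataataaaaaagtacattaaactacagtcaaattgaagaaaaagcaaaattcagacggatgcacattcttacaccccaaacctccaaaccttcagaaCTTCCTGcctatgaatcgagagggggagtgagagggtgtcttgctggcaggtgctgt
Bcl11b: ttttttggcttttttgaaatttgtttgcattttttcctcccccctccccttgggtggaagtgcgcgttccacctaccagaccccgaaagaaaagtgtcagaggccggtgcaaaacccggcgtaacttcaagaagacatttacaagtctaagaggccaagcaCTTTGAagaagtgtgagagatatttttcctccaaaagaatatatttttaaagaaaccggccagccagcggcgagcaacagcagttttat
Il7r and Cd247 each held 1 ETS core, Prf1 held 2 ETS cores and 1 RUNX core, and Bcl11b held 1 TCF/LEF core. Such short motifs are common: of 32851 windows of this length, 10.8% held the ETS core, 14% the RUNX core, 16.3% the T-box site, 13.8% the TCF/LEF core and 6.75% the AP-1 site. Windows were found for 27 of the 39 genes. Among the 15 tested genes with a window, 5 held the ETS core, 4 the RUNX core, 3 the T-box site, 2 the TCF/LEF core and 1 the AP-1 site. A gene was counted if any of its windows held the motif, whereas the shares above are of single windows. Counts and shares are therefore not directly comparable. A match is a description of the letters and not evidence of binding.

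Arrays that go against their labels were identified from Il6, a cytokine gene that injured lung induces. Il6 was at 12.75, 12.33 and 10.32 on the log2 scale in VILI PBEF+/- lungs, 9.60, 9.84, 9.85 and 2.78 in VALI lungs, 2.10, 2.56 and 10.87 in PBEF+/- lungs, and 2.09, 2.13, 2.15 and 2.45 in Control lungs. VALI replicate 4 had the level of unventilated lungs and PBEF+/- replicate 3 that of ventilated lungs. The mean deviation of 8 neutrophil markers from their mean over all arrays followed Il6: it was 2.04 to 2.22 in VILI PBEF+/- lungs, 1.58 to 2.20 in VALI replicates 1 to 3 but -1.81 in VALI replicate 4, 1.92 in PBEF+/- replicate 3 but -2.60 and -1.11 in the other PBEF+/- lungs, and -2.81 to -1.66 in Control lungs. Nampt, which encodes PBEF, was at 10.79, 10.62 and 9.28 in VILI PBEF+/- lungs and 9.34, 9.21 and 10.71 in PBEF+/- lungs. In VALI lungs it was at 10.05, 9.91, 10.54 and 9.25, and in Control lungs at 9.95 to 10.36. The cause of these Nampt levels was not tested. Xist, the RNA that coats the inactive X chromosome of female cells, was between 2.55 and 2.64 in VALI replicate 4, PBEF+/- replicate 2 and Control replicates 1 and 4, and between 13.33 and 13.88 on the other 10 arrays. Results are therefore given as labelled, with the main values again without VALI replicate 4 and PBEF+/- replicate 3. That second setting was chosen after seeing the data, so its p-values are conditional on the choice.

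The array read part of the T and NK cell genes above its median level on every lung. Of the 35 genes with a probe set, 17 were above the array median (4.60 to 4.75 on the log2 scale) on all 14 arrays, among them Cd3d, Cd3e and Cd3g of the receptor complex, Cd2 and Thy1 of the T cell surface, the NK receptor Klrd1, and Nkg7, Gzma, Gzmb and Ccl5 of cytotoxic cells. Cd4, Cd5, Cd6, Ctla4, Zap70, Txk, Trat1 and Ncr1 were at or below the median on all 14 arrays. Among these are Cd4, a defining marker of helper T cells, at 3.69 to 3.98, and Ncr1, one of NK cells, at 2.56 to 2.70. Il2rb, Tbx21 and Klrk1 exceeded the median on 1 array, Control replicate 1, at 4.95, 4.84 and 5.24. Levels of different genes were not compared, since each probe set has its own response.

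With all arrays as labelled, no T or NK cell gene met the adjusted threshold in any comparison. In each of the 5 comparisons 0 of 24 genes had an adjusted p under 0.05 by limma, and so did 0 of the 11360 genes tested (0%). At an unadjusted p under 0.05 the counts over all genes were 2075 for VALI against Control, 938 for PBEF+/- against Control, 2355 for VILI PBEF+/- against PBEF+/-, 1191 for VILI PBEF+/- against VALI and 634 for the interaction.

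In VALI lungs against Control lungs, Il7r and the costimulatory receptor Icos had higher levels in every VALI array, and the perforin gene Prf1 and both granzyme genes had lower means. Il7r was at 9.72, 9.69, 10.09 and 9.20 in VALI lungs and 8.66, 9.15, 8.97 and 8.66 in Control lungs. The groups did not overlap, with the lowest VALI value in the array that lacked Il6. The log2 difference was 0.81 ± 0.22 (SE), a 1.76-fold higher level, with adjusted p = 0.132 by limma. A further Il7r probe set gave a difference of 0.65. Icos was at 4.88, 4.78, 5.57 and 4.85 in VALI lungs and 3.95, 4.12, 4.42 and 3.99 in Control lungs, again with no overlap, for a difference of 0.90 ± 0.27 (adjusted p = 0.153, limma). These levels of Icos lie near the array median, and a second tested probe set of the gene gave a difference of 0.43. Icos exceeded that median on 9 arrays, none of them a Control array, so it passed the filter only through groups where it was higher. Cd28, the main costimulatory receptor of naive T cells, was at 7.43, 7.0, 7.77 and 7.91 in VALI lungs and 6.92, 6.67, 7.04 and 6.54 in Control lungs. The ranges overlapped by 1 array, and the difference was 0.73 ± 0.25 (adjusted p = 0.176, limma). Of the 24 tested genes, 2 lay higher with no overlap between the groups, against 4.7% of all genes, and 0 lay lower, against 5.98%. At an unadjusted p under 0.05, 3 genes (Il7r, Icos and Cd28) were higher, against 7.22% of all genes, and Prf1 was lower, against 11%.

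The 5 genes of the cytotoxic granule and its chemokine all had negative differences in VALI lungs, with a median of -0.70 on the log2 scale against -0.06 over all genes tested, but none met the threshold. Prf1 was at 3.43, 4.36, 3.27 and 4.02 in VALI lungs and 5.90, 5.08, 5.03 and 4.36 in Control lungs, and the groups met at 4.36. Its difference was -1.32 ± 0.42, 2.5-fold lower, with adjusted p = 0.164 by limma. Prf1 exceeded the array median on 5 arrays: Control replicates 1 to 3, PBEF+/- replicate 1 and VILI PBEF+/- replicate 2. No VALI array did, so Prf1 passed the filter mainly through the Control lungs, where it was high. Gzmb, which encodes granzyme B, was at 7.24, 7.74, 6.63 and 7.37 in VALI lungs and 8.27, 8.45, 7.71 and 7.83 in Control lungs. Only VALI replicate 2 reached the Control range, and the difference was -0.82 ± 0.40 (adjusted p = 0.288, limma). Gzma, for granzyme A, was at 9.96, 10.53, 9.18 and 10.15 in VALI lungs and 10.87, 10.84, 10.30 and 10.61 in Control lungs, a difference of -0.70 ± 0.41 (adjusted p = 0.368, limma). The 6 tested genes of the receptor complex and coreceptors had a median difference of 0.22, with 4 positive and 2 negative, and over all 24 genes the median was 0.003, with 12 positive and 12 negative. Without the 2 doubtful arrays that median was -0.18.

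**Figure D1:**
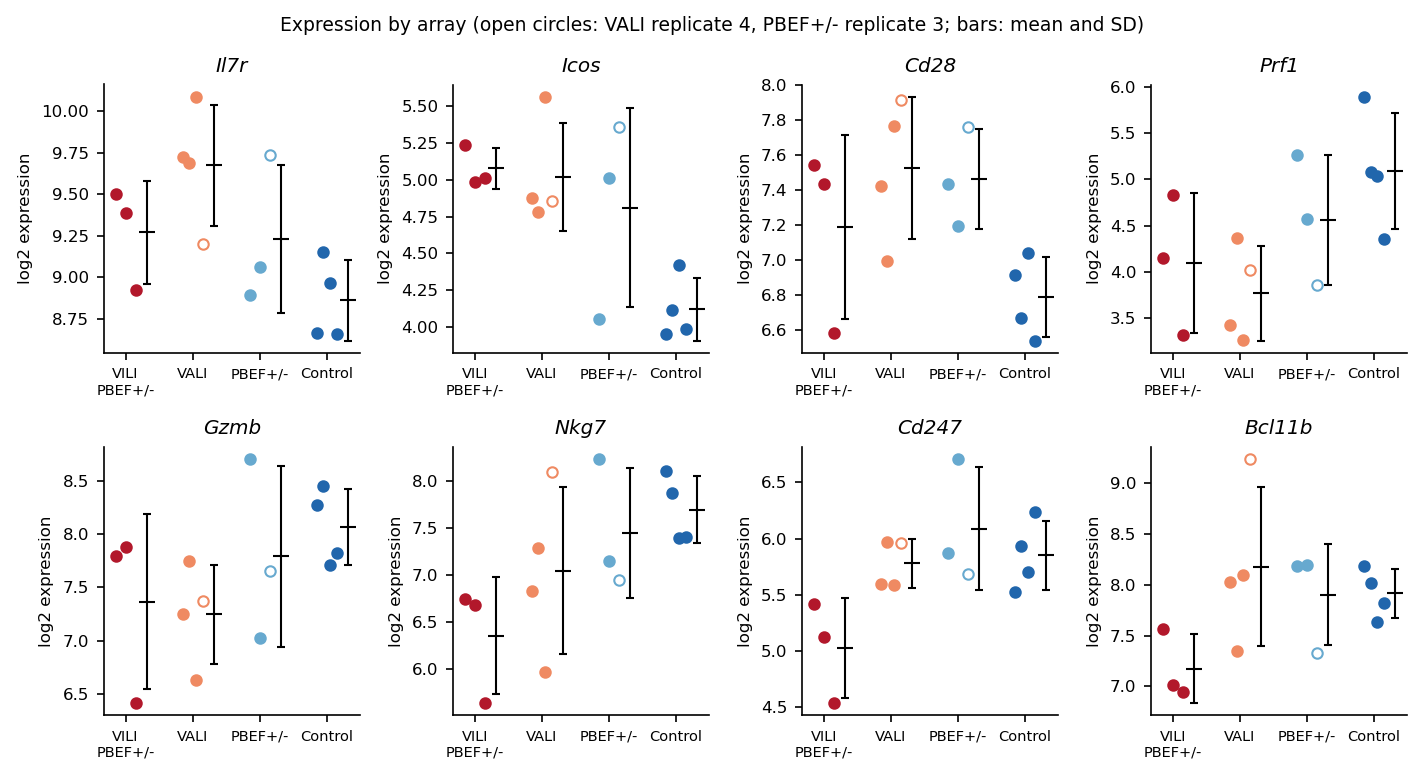
Log2 level of named T and NK cell genes on each array, with groups from left to right VILI PBEF+/-, VALI, PBEF+/- and Control; each point is 1 array, the open points are VALI replicate 4 and PBEF+/- replicate 3, and the bars beside them are the group mean and SD. Il7r and Icos in VALI arrays lie above all Control arrays, and Cd247 in VILI PBEF+/- arrays, at 4.54 to 5.42, lies below all other arrays.

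In unventilated PBEF+/- lungs against Control lungs, no gene of the set met the threshold, and the costimulatory receptors Cd28 and Icos had the smallest p-values. This comparison shares its Control arrays with that of VALI lungs. Cd28 was at 7.44, 7.19 and 7.76 in PBEF+/- lungs and 6.92, 6.67, 7.04 and 6.54 in Control lungs, without overlap, for a difference of 0.67 ± 0.27 (adjusted p = 0.593, limma). Icos was at 4.05, 5.01 and 5.36 in PBEF+/- lungs and 3.95 to 4.42 in Control lungs, a difference of 0.69 ± 0.29 (adjusted p = 0.593, limma). Its highest PBEF+/- value came from replicate 3, the array with high Il6. Gata3, a transcription factor of type 2 helper T cells and of innate lymphoid cells, was at 7.40, 6.35 and 7.02 in PBEF+/- lungs and 7.63, 7.26, 7.55 and 7.70 in Control lungs, a difference of -0.61 ± 0.28 (adjusted p = 0.598, limma). The next smallest p-values belonged to Il7r (0.37 ± 0.24), Skap1 (0.29 ± 0.23) and Cd3d (0.33 ± 0.27), with adjusted p of 0.644, 0.692 and 0.696 by limma. One gene, Cd28, lay higher without overlap, against 1.38% of all genes, and 0 lay lower, against 4.45%. At an unadjusted p under 0.05, 2 genes (Cd28 and Icos) were higher, against 1.93% of all genes, and 0 were lower, against 6.33%. The median difference was 0.04 over the 24 genes and -0.09 over all genes. Without the 2 doubtful arrays that over the 24 genes was 0.13, and the difference was 0.52 for Cd28, 0.42 for Icos, -0.66 for Gata3 and 0.12 for Il7r.

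In VILI PBEF+/- lungs against PBEF+/- lungs, 21 of the 24 tested genes had negative differences and the median was -0.50 on the log2 scale, against -0.05 over all genes, yet no single gene met the adjusted threshold. Without VILI PBEF+/- replicate 3 the median was -0.30, 18 of 24 were negative, and 1 gene in place of 4 had an unadjusted p under 0.05. Cd247, which encodes the zeta chain, was at 5.42, 5.13 and 4.54 in VILI PBEF+/- lungs and 5.87, 6.71 and 5.68 in PBEF+/- lungs. The groups did not overlap, and the difference was -1.06 ± 0.30, 2.09-fold lower, with adjusted p = 0.137 by limma. Cd3d, a chain of CD3, was at 8.04, 7.52 and 6.74 in VILI PBEF+/- lungs and 7.91, 8.21 and 8.11 in PBEF+/- lungs, a difference of -0.64 ± 0.29 (adjusted p = 0.229, limma). The ranges overlapped, and the low mean came largely from VILI PBEF+/- replicate 3: without that array the difference was -0.30. The other 4 genes of the receptor complex and coreceptors also had negative differences. These were small for Cd3e and Cd8a (-0.05 for both), -0.20 for Cd3g and -0.68 for Cd8b1, and the median over the 6 was -0.42. Cd8a varied little over the 14 arrays, from 5.14 to 5.69. Among the adapters, Lat was at 7.12, 6.92 and 6.58 in VILI PBEF+/- lungs and 7.27, 7.85 and 7.15 in PBEF+/- lungs, without overlap, a difference of -0.55 ± 0.23 (adjusted p = 0.219, limma). Skap1 was at 5.49, 5.22 and 4.89 in VILI PBEF+/- lungs and 5.48, 6.06 and 5.58 in PBEF+/- lungs, a difference of -0.51 ± 0.25 (adjusted p = 0.259, limma).

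The cytotoxic genes were also lower on average in VILI PBEF+/- lungs, with all 5 differences negative and a median of -0.68. Their mean deviation was -0.16, 0.01 and -1.30 in VILI PBEF+/- lungs and 0.96, -0.13 and -0.18 in PBEF+/- lungs. The lower average therefore came largely from VILI PBEF+/- replicate 3 and PBEF+/- replicate 1, and the other arrays of these groups overlapped. Nkg7, a granule membrane protein of NK and cytotoxic T cells, was at 6.75, 6.68 and 5.64 in VILI PBEF+/- lungs and 8.24, 7.15 and 6.95 in PBEF+/- lungs. The groups did not overlap, and the difference was -1.09 ± 0.49 (adjusted p = 0.234, limma). Ccl5, a chemokine stored by cytotoxic lymphocytes, was at 10.07, 9.85 and 8.83 in VILI PBEF+/- lungs and 10.49, 10.06 and 10.24 in PBEF+/- lungs, a difference of -0.68 ± 0.32 (adjusted p = 0.249, limma), which became -0.31 without VILI PBEF+/- replicate 3. The 2 tested NK receptor genes, Klrd1 and Klrg1, had differences of -0.52 and -0.86. Klrd1 was at 8.08, 8.44 and 7.17 in VILI PBEF+/- lungs and 8.80, 8.32 and 8.12 in PBEF+/- lungs. Klrg1 exceeded the array median only on Control replicates 1 and 4 and PBEF+/- replicate 1, so its difference is not free of the filter. Il7r (0.04), Gata3 (0.04) and Icos (0.27) were the 3 genes with positive differences. In all, 6 genes (Cd247, Lat, Nkg7, Cd2, Thy1 and Eomes) lay lower without overlap, against 10.8% of all genes, and 0 lay higher, against 8.47%. For Cd2 the nearest values of the groups were 8.035 and 8.038, and for Eomes 3.79 and 3.82. Of the arrays compared, only PBEF+/- replicate 1 had Eomes above the array median, so the separation of Eomes is not free of the filter. At an unadjusted p under 0.05, 4 genes (Cd247, Lat, Cd3d and Nkg7) were lower, against 11.4% of all genes, and 0 were higher, against 9.35%. B cell markers were low on the same arrays: the mean deviation of 7 of them was -0.49, -0.61 and -1.28 in VILI PBEF+/- lungs and 0.82, 0.89 and -0.30 in PBEF+/- lungs. The part of neutrophil RNA, B cell RNA or age in these differences was not tested.

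**Figure D2:**
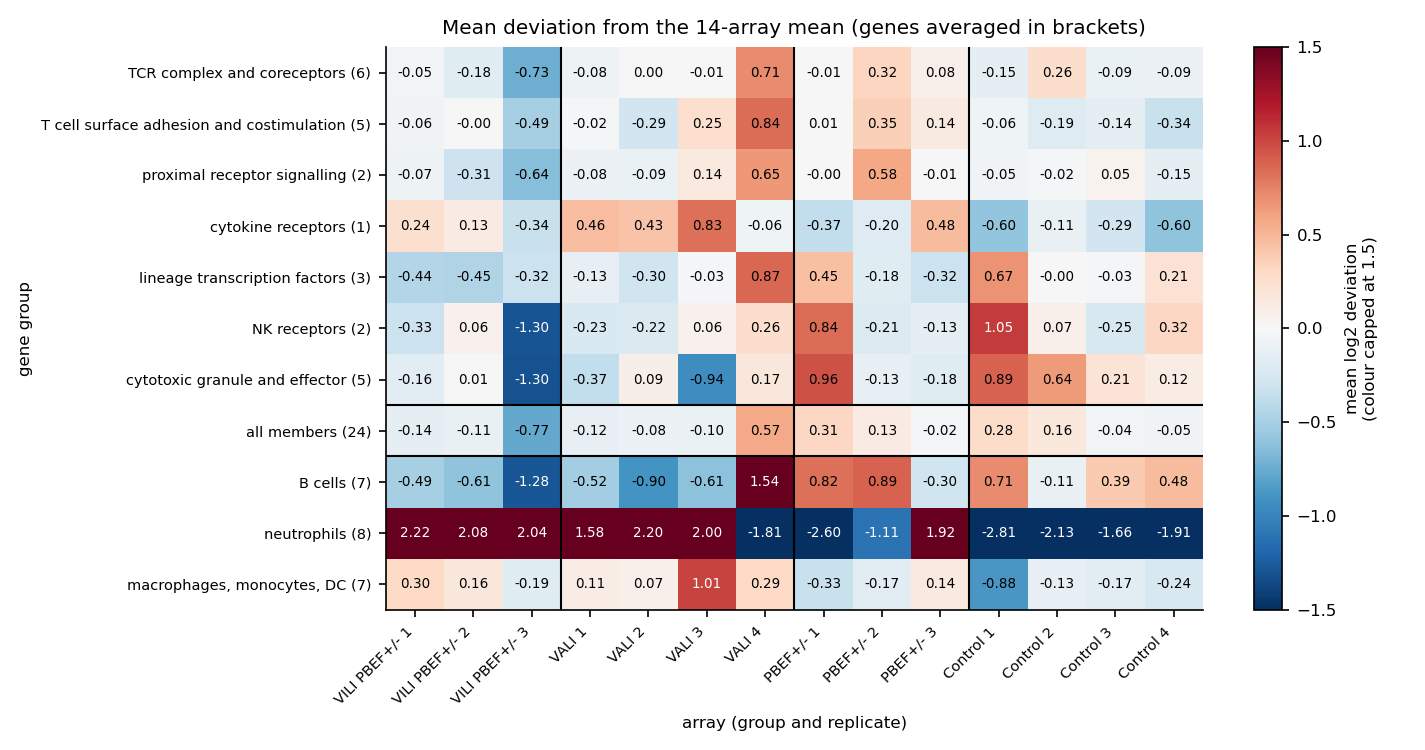
Mean deviation (log2) of the tested genes of each role group from their mean over the 14 arrays, for each array, with VILI PBEF+/- arrays first, then VALI, PBEF+/- and Control; the 3 lowest rows are markers of other cell types, and the colour is capped at 1.5. Over all 24 genes VALI replicate 4 is highest at 0.57 and VILI PBEF+/- replicate 3 lowest at -0.77, while the other 12 arrays lie between -0.14 and 0.31.

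VILI PBEF+/- lungs had lower means than VALI lungs in 20 of the 24 genes, with a median difference of -0.42 against -0.08 over all genes, of which 35.7% had positive differences, and again no gene met the adjusted threshold. The VILI PBEF+/- arrays are those of the previous comparison. Bcl11b, a transcription factor that sets and maintains T cell identity, was at 7.56, 7.02 and 6.95 in VILI PBEF+/- lungs and 8.03, 7.35, 8.10 and 9.24 in VALI lungs. The groups overlapped at VALI replicate 2, and the difference was -1.0 ± 0.36 (adjusted p = 0.433, limma). Cd247 was at 5.59, 5.97, 5.59 and 5.96 in VALI lungs, all above the VILI PBEF+/- values, for a difference of -0.75 ± 0.28 (adjusted p = 0.433, limma). It alone lay lower without overlap, against 10.2% of all genes, and 0 genes lay higher, against 4.67%. Cd3d (-0.66 ± 0.27), Skap1 (-0.56 ± 0.23), Cd3g (-0.70 ± 0.32) and Lat (-0.43 ± 0.22) followed, with adjusted p between 0.452 and 0.509 by limma. At an unadjusted p under 0.05, 4 genes (Bcl11b, Cd247, Cd3d and Skap1) were lower, against 7.09% of all genes, and 0 were higher, against 3.4%. Without VILI PBEF+/- replicate 3 the median was -0.24, and 0 genes had an unadjusted p under 0.05. Without both doubtful arrays it was -0.29, with Bcl11b at -0.65 and Cd3g at -0.43, and without those arrays and VILI PBEF+/- replicate 3 it was 0.0003, with 12 genes positive and 12 negative.

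Whether ventilation acted differently with and without the PBEF+/- condition was asked of the interaction, the difference in VILI PBEF+/- against PBEF+/- minus that in VALI against Control. VILI PBEF+/- animals were aged 8 to 12 weeks and all others 18 to 22 weeks, so this interaction cannot be told apart from age. The median over the 24 genes was -0.52, against 0.02 over all genes, and 20 were negative. Cd28 (-1.01 ± 0.38), Cd3d (-0.99 ± 0.38), Skap1 (-0.86 ± 0.33), Cd247 (-0.99 ± 0.40) and Il7r (-0.77 ± 0.34) had an unadjusted p under 0.05, 5 genes against 2.71% of all genes with a negative interaction. None was positive at that level, against 2.87% of all genes, and Lat (-0.60 ± 0.31) came next. Their adjusted p lay between 0.867 and 0.902 by limma, so no interaction met the threshold. Without VILI PBEF+/- replicate 3 the median was -0.25 and 0 genes had an unadjusted p under 0.05. It was -0.39 without both doubtful arrays, and -0.14 without those arrays and VILI PBEF+/- replicate 3.

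**Figure D3:**
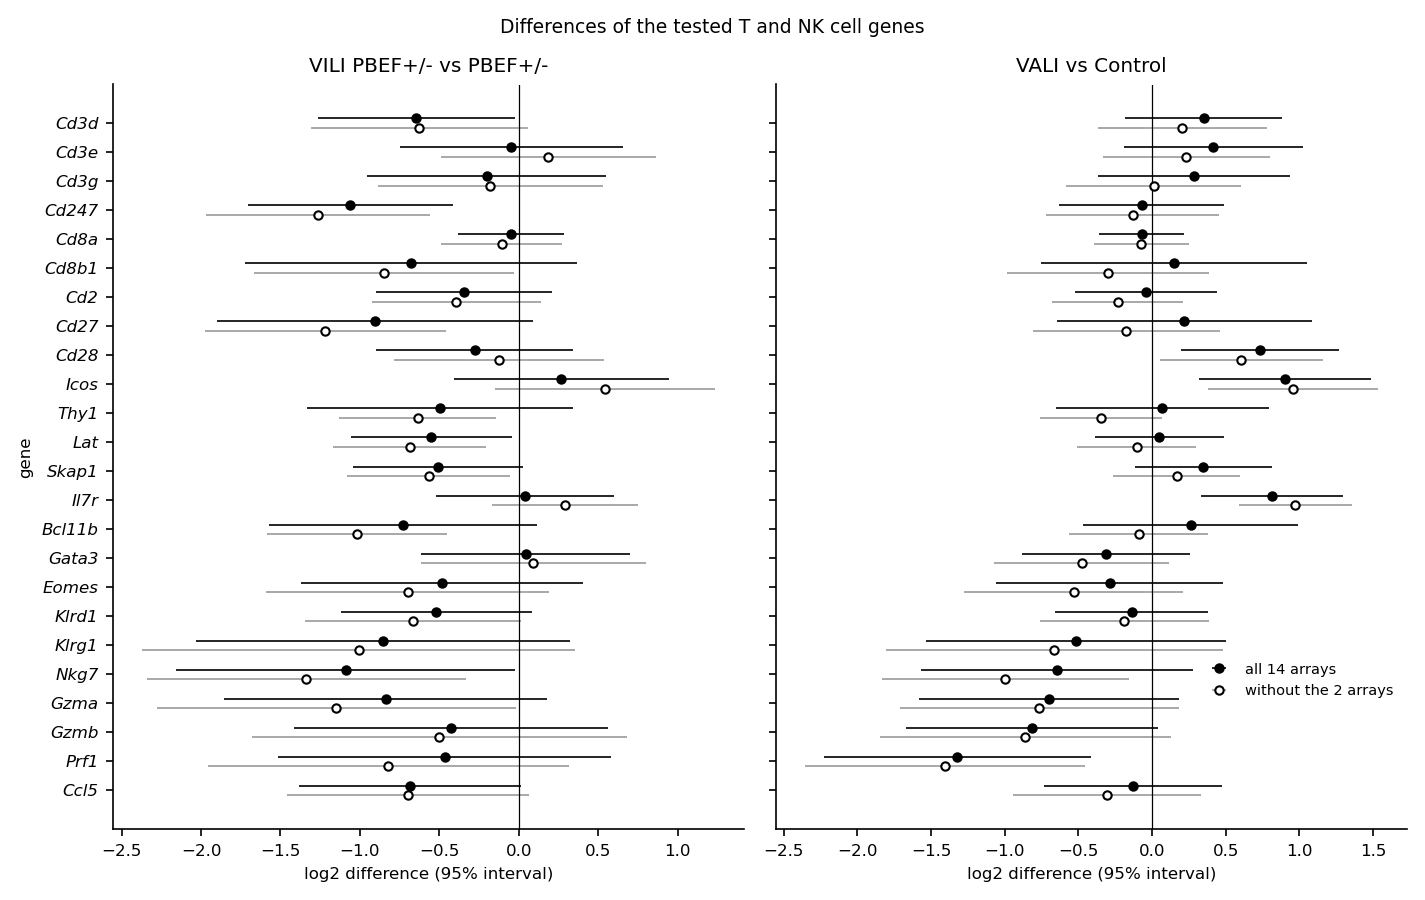
Log2 differences of the 24 tested genes, VILI PBEF+/- minus PBEF+/- on the left and VALI minus Control on the right, with 95% confidence intervals from the limma model on all arrays and open circles for the fit without VALI replicate 4 and PBEF+/- replicate 3. On the left 21 of 24 filled circles lie below 0, and on the right the split is 12 to 12 with Il7r and Icos at the positive end and Prf1 at the negative end.

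Without VALI replicate 4 and PBEF+/- replicate 3, 3 genes met the threshold in VALI lungs against Control lungs and 4 in VILI PBEF+/- lungs against PBEF+/- lungs. Both shares are below those of the whole array, where 1933 genes (17%) were called in the first comparison, 6.53% higher and 10.5% lower, and 3003 (26.4%) in the second, 11.2% higher and 15.3% lower. In VALI lungs Il7r rose by 0.97 ± 0.18 on the log2 scale (adjusted p = 0.00415, limma), Icos rose by 0.96 ± 0.26 (adjusted p = 0.0296, limma) and Prf1 fell by 1.41 ± 0.43 (adjusted p = 0.0461, limma). Prf1 had passed the filter mainly through Control arrays, where it was high, so its call is not free of that filter. Icos had passed it through no Control array, with all VALI arrays above the array median, so the call for Icos is not free of it either. Il7r stayed under the threshold when any 1 of the remaining 12 arrays was also left out, with adjusted p between 0.00224 and 0.0202 by limma. Icos rose above the threshold when Control replicate 1, 2 or 4 or VALI replicate 1 or 3 was also left out (adjusted p up to 0.111), and Prf1 when Control replicate 1, 2 or 3, VALI replicate 1 or 3 or VILI PBEF+/- replicate 1 was (up to 0.147). Among arrays with high Xist only, Il7r was at 9.69 to 10.09 in VALI replicates 1 to 3 and at 9.15 and 8.97 in Control replicates 2 and 3, and Prf1 at 3.27 to 4.36 against 5.08 and 5.03.

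In VILI PBEF+/- lungs, under the same setting, 4 genes of T cells fell and none of the 24 rose, against 15.3% of all genes that fell. Cd247 fell by 1.26 ± 0.32, Bcl11b fell by 1.02 ± 0.26, Cd27, a costimulatory receptor of the tumour necrosis factor receptor family, fell by 1.22 ± 0.35 and Lat fell by 0.69 ± 0.22, with adjusted p of 0.0153, 0.0153, 0.025 and 0.039 by limma. All 4 calls were lost without PBEF+/- replicate 2, 1 of only 2 PBEF+/- arrays left: then the adjusted p was 0.135 for Cd247, 0.0666 for Bcl11b, 0.223 for Cd27 and 0.277 for Lat. Cd247 kept its call when any other single array was left out. Bcl11b lost its call without VILI PBEF+/- replicate 2 as well (0.0517), Cd27 without VILI PBEF+/- replicate 1 or 3 (0.0666 and 0.0591), and Lat without VILI PBEF+/- replicate 2 or 3, VALI replicate 1 or 2 or Control replicate 3. PBEF+/- replicate 2 also had low Xist, and it had the highest Cd247, Cd27 and Lat of the PBEF+/- group, at 6.71, 5.80 and 7.85. Cd27 had passed the filter only through Control replicate 1, VALI replicate 4 and PBEF+/- replicate 2. VALI replicate 4 is left out here, so Cd27 would fail the same filter on the arrays that remain. Its call rests on PBEF+/- replicate 2, since PBEF+/- replicate 1 (4.66) and all VILI PBEF+/- arrays (3.72 to 4.35) were below the array median. The call for Cd27 is therefore not free of that filter. Among arrays with high Xist, PBEF+/- replicate 1 is the sole PBEF+/- array left, and its Cd247 (5.87) and Bcl11b (8.18) were above those of all 3 VILI PBEF+/- arrays. A second tested Bcl11b probe set differed by -0.09 between VILI PBEF+/- and PBEF+/- lungs with all arrays, against -0.73 for the one used. In the remaining comparisons under this setting 0 of 24 genes were called: 0 genes of the array (0%) were called in PBEF+/- against Control and in the interaction, and 13 (0.114%) in VILI PBEF+/- against VALI. These counts moved with single arrays: with PBEF+/- replicate 1 also left out, so that replicate 2 stood alone for the PBEF+/- group and was assumed to vary like the others, 1892 genes and 3 of the 24 were called in PBEF+/- against Control and 1242 genes and 2 of the 24 in the interaction. All 7 of the B cell markers tested fell and all 8 neutrophil markers rose in VILI PBEF+/- lungs under this setting, and in VALI lungs 5 of 7 B cell markers fell and 8 of 8 neutrophil markers rose. The 2 doubtful arrays had been identified from Il6, which the neutrophil markers followed, so the neutrophil counts are not independent of that choice. The part of either marker set in the calls above was not tested.

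A pair of arrays stood at the ends of the set. VALI replicate 4 was the highest of the 14 arrays for 11 of the 24 genes, against 12.3% of all genes, and VILI PBEF+/- replicate 3 was the lowest for 15, against 7.93% of all genes. VALI replicate 4 was high in several T cell genes (Cd3d 8.52, Cd3g 7.61, Thy1 9.09, Bcl11b 9.24 and Cd8b1 6.33). Others did not follow: its Il7r (9.20) was the lowest of the VALI lungs, and its Cd247 (5.96), Cd8a (5.24) and Icos (4.85) were not the highest. Among the cytotoxic genes, the same array had the highest Ccl5 (10.58) and Nkg7 (8.10) of the VALI lungs but not the highest Prf1 (4.02), Gzma (10.15) or Gzmb (7.37). VILI PBEF+/- replicate 3 was low in both kinds, with Cd3d at 6.74, Klrd1 at 7.17, Gzma at 8.66 and Ccl5 at 8.83. B cell markers set the same arrays apart, with a mean deviation of 1.54 in VALI replicate 4 and -1.28 in VILI PBEF+/- replicate 3. The cytotoxic genes varied apart from the T cell genes on some arrays, ventilated or not. Their mean deviation was 0.96 in PBEF+/- replicate 1, 0.89 in Control replicate 1 and -0.94 in VALI replicate 3. That of the receptor complex was -0.01, -0.15 and -0.01 on these arrays. In Control replicate 2 both were raised, at 0.64 and 0.26.

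**Figure D4:**
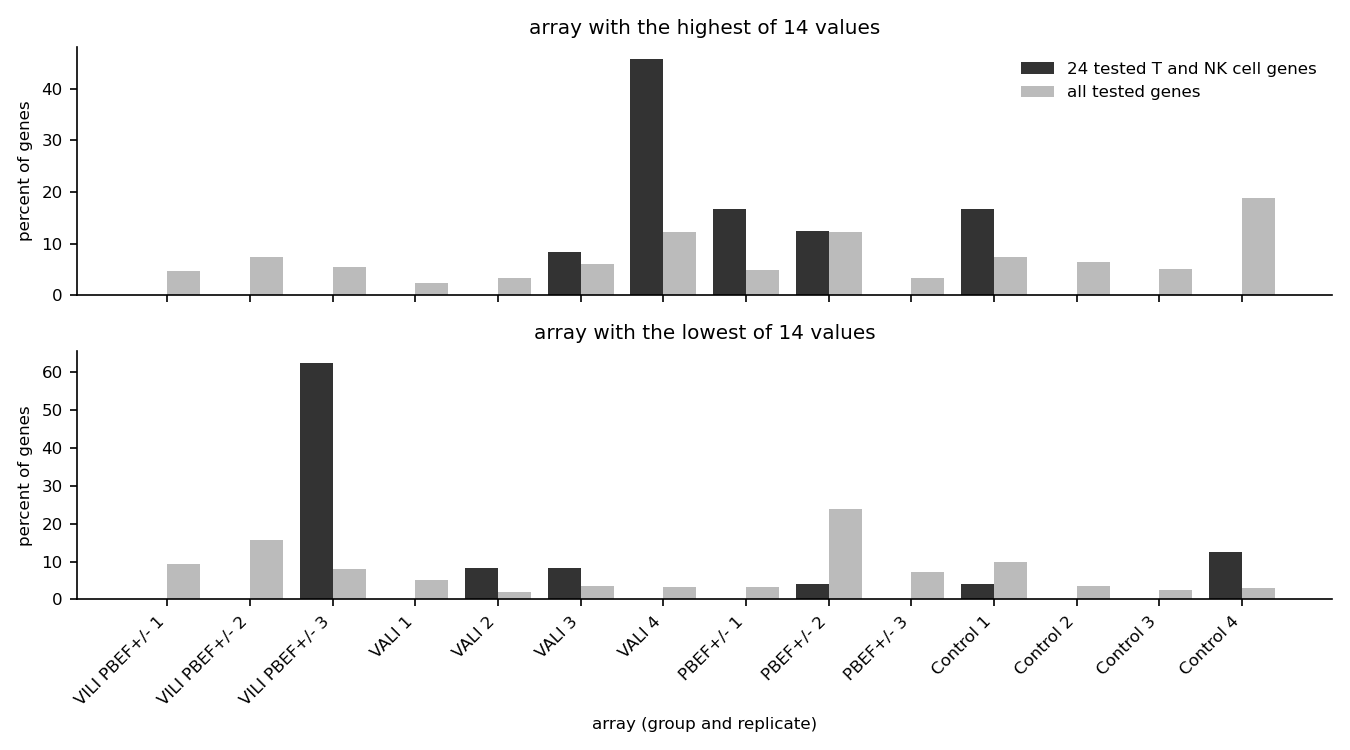
Share of genes (percent) for which each array was the highest or the lowest of the 14, for the 24 tested T and NK cell genes and for all genes tested, with groups in the order VILI PBEF+/-, VALI, PBEF+/- and Control. VALI replicate 4 is highest for 11 of 24 genes and VILI PBEF+/- replicate 3 lowest for 15 of 24.

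Genes of the same pathways outside the set were described with 4 further lists, in which 0 of 52 tested genes met the threshold in any comparison as labelled. Counts without the 2 doubtful arrays stand against 6.53% of all genes higher and 10.5% lower in VALI lungs, and 11.2% higher and 15.3% lower in VILI PBEF+/- lungs. Of 14 tested genes of the T cell receptor pathway, Vav1, an exchange factor that acts below many immune receptors, was at 6.10, 6.48, 7.28 and 6.48 in VALI lungs and 5.13, 5.47, 5.48 and 5.36 in Control lungs, without overlap. Its difference was 1.22 ± 0.25 (adjusted p = 0.0809, limma), and without the 2 doubtful arrays it was the only one of the 14 that rose, and none fell. Of 11 further NK and cytotoxic genes, Tyrobp, an adapter of activating receptors in NK and myeloid cells, differed by 0.78 ± 0.16 between VALI and Control lungs (adjusted p = 0.0809, limma), and Il18rap, a chain of the interleukin 18 receptor, by 1.27 ± 0.35 (adjusted p = 0.13, limma). Without the 2 arrays 4 of these 11 rose (Il18rap, Fcgr3, Nfil3 and Tyrobp), none of which belongs to lymphocytes alone. Of 16 genes of T cell trafficking and quiescence, Klf2, which holds T cells quiescent and is also abundant in endothelium, was at 11.65, 12.04, 11.24 and 13.43 in VALI lungs and 13.87, 13.77, 13.77 and 13.29 in Control lungs. Klf2 was the only one of the 16 that fell without the 2 arrays, by 2.03 ± 0.27 (adjusted p = 0.000829, limma), and none rose. Of 4 endothelial markers tested, Tek and Kdr fell in the same setting, by 0.89 and 0.94.

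In VILI PBEF+/- lungs against PBEF+/- lungs, 14 of the 16 trafficking genes had negative differences with all arrays, and the median was -0.32. Without the 2 arrays 4 of them fell and 1 rose: Itga4, the alpha 4 integrin by which lymphocytes enter tissue, fell by 1.11 ± 0.18 (adjusted p = 0.00161, limma) and Klf2 fell by 1.27 ± 0.32, with Itgal and Itgb7 also lower, while S1pr1, the receptor that guides lymphocytes out of tissue and is abundant in endothelium, rose by 1.08 ± 0.22. In the receptor pathway 3 of 14 fell and 2 rose, led by Rasgrp1, which activates Ras below the T cell receptor and fell by 1.05 ± 0.20 (adjusted p = 0.00412, limma). Of 11 cytokine ligands and their signalling genes, 3 rose and 1 fell: Il15, the cytokine that sustains NK cells, fell by 1.11 ± 0.23 (adjusted p = 0.00622, limma), and Tslp, an epithelial cytokine that binds a receptor containing the Il7r chain, rose by 1.42 ± 0.43 (adjusted p = 0.0331, limma), as did Cish and Jak1. Of the 11 further NK genes Nfil3 and Fcgr3 rose, and S1pr5 and Cx3cr1, which mature NK cells carry, fell.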

How the data were processed

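Total RNA of mouse lung was extracted with Trizol and labelled from 6 µg per array, per the labels' protocols. The authors deposited log2 expression values of 45101 probe sets on each array. Per the submitters' processing notes the authors used MAS5 and GCRMA, with no version or role given. They were used with no further scaling. Of the probe sets, 34958 have 1 gene symbol, 932 several and 9211 none, and only the first were used. The number of arrays limits the precision. With limma 3.58.1 under R 4.3.3, 1 linear model held the 4 groups and all 14 arrays (empirical Bayes, variance trend), with Benjamini-Hochberg adjustment over the 11360 genes above the array median on at least 3 arrays, and was tested on simulated data. A ± after a log2 difference is a standard error. Named with values are the called genes and the 6 with the smallest p per comparison, and up to 4 per further list. The genes, the lists were chosen with earlier results of these data known. Replicate numbers did not pair the arrays: correlations of deviations between same-numbered arrays ran from -0.35 to 0.32. Alternatives changed the scaling, the filter, the probe set rule, the model and the arrays. Promoter sequences are RefSeq's, and figures were drawn with matplotlib 3.10.9.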

Additional observations from a re-analysis of the deposited data

Results flagged for a closer look

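In 7 results of the T and NK cell genes, a group had 1 array far from the rest, measured as the gap to the nearest array over the range of the group (Dixon's ratio, above its 95% critical value for 4 arrays). In VALI lungs replicate 4 was the highest array for Cd27 (0.950), Eomes (0.904), Cd8b1 (0.846) and the mean deviation of all 24 genes (0.945), and replicate 3 was the highest for Icos (0.876). In Control lungs replicate 1 was the highest for Cd27 (0.998) and replicate 2 for Cd3d (0.901). These were 7 of 50 groups tested, 5 in VALI and 2 in Control, where chance would give about 1 in 20 if the groups were independent. They are not, since the genes share arrays and the mean deviation is made of them. Moreover, Cd27 and Eomes passed the filter only through arrays that include those flagged. No conclusion is drawn from the count. Groups of 3 arrays were not tested.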

How the results depend on the processing

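No call could reverse under the alternative runs, since the main fit called 0 genes in all 5 comparisons. The median difference of the T and NK cell genes in VALI against Control lay near 0 and had no settled sign, from -0.18 to 0.14 when 1 array was left out, as in PBEF+/- against Control, from -0.03 to 0.13. The medians of the other comparisons stayed negative, from -0.65 to -0.30 in VILI PBEF+/- against PBEF+/-, -0.58 to -0.24 in VILI PBEF+/- against VALI and -0.64 to -0.25 in the interaction. The replicate block, which treats equal numbers as pairs although they share only a number, kept 0 genes and 0 T and NK cell genes called in all 5 comparisons, with member medians of 0.003, 0.14, -0.50, -0.38 and -0.52 in the order of the report. The genes called over the whole array moved in 3 comparisons when 1 choice was changed. For VALI against Control they were 2 with the mean of probe sets, 27 with only the groups compared in the fit, 0 to 680 when 1 array was left out (680 without VALI replicate 4, 288 without PBEF+/- replicate 3) and 1933 without both. For VILI PBEF+/- against PBEF+/- they were 1 with the mean of probe sets, with the probe set of largest variance or with every probe set, 0 to 2157 when 1 array was left out (2157 without PBEF+/- replicate 3, 12 without VILI PBEF+/- replicate 3) and 3003 without both doubtful arrays. For VILI PBEF+/- against VALI they were 2 with the largest variance or every probe set, 1 with only the groups compared, 0 to 9 when 1 array was left out and 13 without both. T and NK cell genes called were 0 to 1 when 1 array was left out in the first 2 of these, and 3 and 4 without both doubtful arrays, an alternative added after seeing the data. With 1 further array left out on top of both, genes called ranged from 985 to 2524 in VALI against Control, 0 to 1892 in PBEF+/- against Control, 1820 to 3710 in VILI PBEF+/- against PBEF+/-, 0 to 107 in VILI PBEF+/- against VALI (107 without VILI PBEF+/- replicate 3) and 0 to 1242 in the interaction, and T and NK cell genes called from 1 to 3, 0 to 3, 2 to 6, 0 to 0 and 0 to 2. Except in VILI PBEF+/- against VALI, the highest counts came without PBEF+/- replicate 1. The calls gained with 1 array left out were Il7r in VALI against Control without VALI replicate 4 (adjusted p = 0.0328, limma) or without PBEF+/- replicate 3 (0.0492), and Cd247 in VILI PBEF+/- against PBEF+/- without PBEF+/- replicate 3 (0.0227). With the Xist pattern as a block, also added later, 0 genes were called in the 5 comparisons, and the member medians were 0.07, 0.10, -0.40, -0.39 and -0.51. The cause of these changes was not tested.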
